A study of Mus musculus with 36 samples.

Results

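The expressed Zfp genes of EML4-ALK lung tumours are described here, that is, mouse genes whose symbol is Zfp followed by digits and whose level passed a set minimum. They were chosen by their measured level: a mean of at least 5 CPM (counts-per-million, scaled by the library total) over all 36 tumours. The count table holds 374 such Zfp genes among 49585 gene IDs, and 227 passed, while 147 lay below the minimum. The levels below are therefore a description. No contrast was used as such, but a gene high in 1 group only could pass through that group: in 21 of the 227 the lowest group mean was under 5 CPM, and these include Zfp711, Zfp788 and Zfp618, which are among the largest differences below.

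RNA was sequenced from lung tumour cells of mice, sorted for EGFP; the tumours are driven by EML4-ALK, a fusion of the ALK tyrosine kinase with part of EML4. The fusion was either Variant 1 or Variant 3, and each was combined with the control guide sgNeo (Setd2-proficient tumours) or with sgSetd2 (Setd2-deficient tumours). This gives 4 groups of 9 tumours, and the 9 titles of a group carry 3 codes with 3 tumours each. What a code stands for is not explained, and no strain, age, promoter or genotype beyond the variant and the guide is given in the labels. Counts were summed over the 3 tumours that share a code, which leaves 3 codes (n = 3) per group, and a p-value reflects how codes differ within a group, which may be technical. SETD2, the product of the targeted gene, trimethylates lysine 36 of histone H3 in transcribed gene bodies.

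The Zfp symbol names proteins with zinc fingers, short loops folded around a zinc ion. Most carry arrays of C2H2 fingers, which read DNA, and a large share of these also carry a KRAB domain near the N terminus, which recruits the scaffold TRIM28 and through it the histone methyltransferase SETDB1 to silence retroelements and imprinted regions. KRAB zinc finger genes sit in tandem clusters that arose by duplication, and their last exons are known to carry both the repressive histone mark at lysine 9 and the SETD2 mark. Other Zfp proteins act outside this system, on RNA, ribosomes, chromatin complexes or developmental promoters.

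Total counts ran from 17893071 to 137152480 per tumour. Setd2 itself stood at 71.0, 53.5 and 78.5 TMM-normalised CPM in the Variant 1 sgNeo codes against 39.0, 38.7 and 34.5 in the sgSetd2 codes, and at 52.9, 65.7 and 45.2 against 33.6, 43.8 and 59.8 in Variant 3. The groups overlapped in Variant 3 only, neither difference passed (adjusted p = 0.0825 and 0.647), and counts per gene carry no information on the edited site. Alveolar type 2 markers were high in every group (summed level 108241 to 175101 CPM over 8 genes), and the T and B cell markers summed to at most 0.541 CPM. Of 26 cell cycle genes, 5 fell and all were negative in the contrast of sgSetd2 against sgNeo averaged over variants. Their mean log2-CPM was 2.66 to 3.23 in the Variant 1 sgSetd2 codes against 4.54 to 4.62 in Variant 1 sgNeo, and 3.17 to 4.39 against 3.39 to 4.41 in Variant 3. Of 4 club cell markers, 2 rose in that contrast and all 4 were positive, with summed levels of 224 to 661 CPM in Variant 1 sgSetd2 against 21.1 to 104 in sgNeo, and 53.7 to 239 against 10.6 to 20.6 in Variant 3. The 10 macrophage markers summed to 278 to 351 against 181 to 305 CPM in Variant 1 and to 285 to 357 against 190 to 259 CPM in Variant 3, with 1 of the 8 tested rising in the average, and Adgre1 or Marco was at 0 in each group.

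The 227 Zfp mRNAs were mostly of low abundance. Their mean level ran from 5.03 to 730 CPM with a median of 15.1, against a median of 34.2 over the 10239 genes of the table that reached 5 CPM. Only 6 exceeded 100 CPM, and 64 lay below 10. The mean levels of all 227 added up to 6283 CPM. By code, their sum was 6576 ± 258 CPM with sgNeo and 5978 ± 395 with sgSetd2 in Variant 1, and 6463 ± 167 with sgNeo and 6206 ± 755 with sgSetd2 in Variant 3 (SD, n = 3 codes). The groups overlapped in both variants. Every tumour had counts for at least 225 of the 227.

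Among the 6 most abundant Zfp mRNAs, several code for proteins that act on RNA or in cell division rather than as DNA-binding C2H2 factors. Zfp36 led with 730 CPM. It encodes tristetraprolin, a CCCH-finger protein that binds AU-rich elements and speeds the decay of cytokine and immediate-early mRNAs. It was followed by Zfp706 (263 CPM), by Zfp207 (164 CPM), which codes for a spindle and kinetochore protein, by the KRAB gene Zfp266 (152 CPM), by Zfp638 (106 CPM), whose product silences unintegrated retroviral DNA, and by Zfp106 (104 CPM), which codes for an RNA-binding protein. Per kilobase of exon the order was Zfp36 (210 CPM per kb), Zfp706 (52.9), Zfp207 (24.6), Zfp809 (22.2), Zfp266 (21.6) and Zfp422 (19.3). Zfp809 encodes the KRAB protein that recognises the primer binding site of murine leukaemia viruses.

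Zfp36 was also uneven between codes of 1 group. It stood at 493, 1259 and 595 CPM in the 3 Variant 3 sgSetd2 codes. Zfp706 was the steadiest of all, with a residual SD of 0.09 on the log2 scale between codes of a group. The widest spread was that of Zfp619, at 0.89, with 73.7, 35.95 and 11.4 CPM in the 3 Variant 1 sgNeo codes and 56.5, 46.1 and 18.6 CPM in the 3 Variant 3 sgSetd2 codes. The median residual SD was 0.28 over the Zfp genes, 0.28 over the 20009 genes tested and 0.24 over genes of at least 5 CPM. At the minimum, the genes just inside were Zfp365 (5.03 CPM), Zfp184 (5.11) and Zfp777 (5.19), and those just outside were Zfp595 (4.97), Zfp760 (4.93) and Zfp791 (4.88).

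Coding sequences of 226 of the Zfp genes were translated and searched for C2H2 fingers and for a KRAB box pattern; the remaining gene, Zfp125, is annotated as a transcribed pseudogene. The median was 10 fingers, and Zfp619 held the most, 33. No C2H2 finger was found in 13, among them Zfp36, Zfp608, Zfp609, Zfp703 and Zfp503. The KRAB pattern was found in 106 and not in 120; it misses divergent boxes, and the known KRAB proteins Zfp57 and Zfp445 are among those it did not find. Genes with the pattern had a median of 12 fingers and a level of 3.00 CPM per kb (quartiles 2.06 and 4.71), and those without it had 7 fingers and 3.88 CPM per kb (quartiles 2.13 and 6.75). The quartiles of both sets overlap widely.

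**Figure D1:**
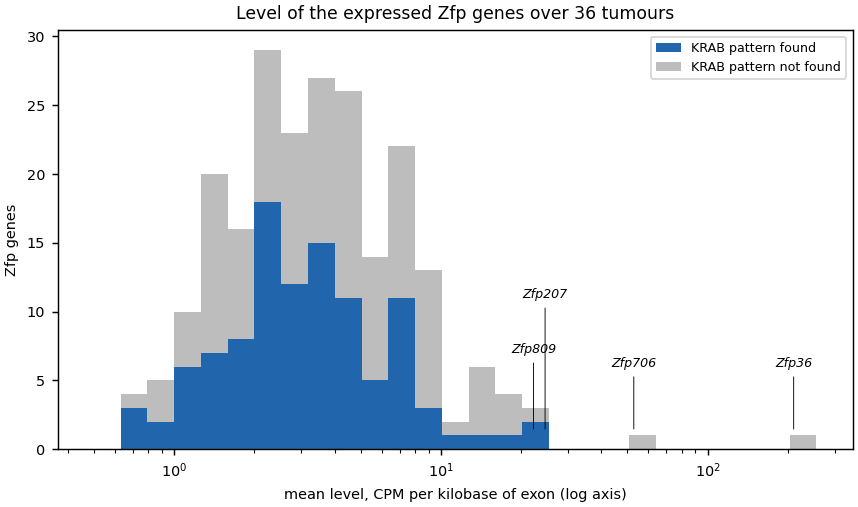
Number of expressed Zfp genes (vertical axis) by their mean level over the 36 tumours in CPM per kilobase of exon (horizontal log axis), stacked by whether the KRAB box pattern was found (106 genes) or not (120), with the pseudogene Zfp125 left out. The median lies at 3.41 CPM per kb, and Zfp706 and Zfp36 stand alone at 52.9 and 210.

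Promoter windows (250 bases before to 50 after the annotated start, RefSeq, GRCm38.p6) were found for 190 of the 227 genes, 234 windows in all. Their median was 15.5 CG dinucleotides, against 10 in the 108 windows of KRAB-pattern genes and 7 over all 32851 windows of the mouse table. The ETS core CCGGAAG was present on either strand in 21.4% of the Zfp windows, 22.2% of the KRAB-pattern windows and 8.86% of all windows, and the SP1 core GGGCGG in 47.9%, 30.6% and 35.7%. The short box CCAAT was present in 47.4%, 60.2% and 37.4%. Other motifs searched on both strands were TGACGTCA (CRE), in 2.56% of the Zfp windows against 1.79% of all, GCATGCG (NRF1), in 6.41% against 3.58%, AAGATGGCG (YY1), in 2.99% against 1.40%, and ACTACAA (ZNF143), in 5.13% against 3.24%. No motif searched contains another, and a match is a description of the window. The windows of the mouse table were taken whatever the level of their gene, so they are not matched to the minimum of 5 CPM. A comparison with windows of genes at that level was not made.

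Windows are printed for Zfp618, Zfp788 and Zfp821, which have the largest falls among the genes that passed below, and for Zfp995 and Zfp53, which rose. No window was found for Zfp711, which rose most, and none is printed for Zfp608, which rose slightly more than Zfp53. The printed windows span a wide range of CG content. Capitals mark CG dinucleotides, and each sequence runs 5′ to 3′ on the strand of its gene. Zfp618 (chr4:62965317-62965616, plus strand) has 59 CG, at or above 99.9% of all windows, and Zfp821 (chr8:109705296-109705595, plus strand) has 33 (92.3%). Zfp788 (chr7:41633281-41633580, plus strand) has 8 (54.2%), and Zfp53 (chr17:21488738-21489037, plus strand) has 9 (56.5%). Zfp995 (chr17:21909877-21910176, minus strand) has 3 (31.4%), fewer than the median window. Zfp788 has a further window with 4 CG, and Zfp821 has others with 30 and 42; the one nearest the GENCODE start of the gene is printed.
Zfp618: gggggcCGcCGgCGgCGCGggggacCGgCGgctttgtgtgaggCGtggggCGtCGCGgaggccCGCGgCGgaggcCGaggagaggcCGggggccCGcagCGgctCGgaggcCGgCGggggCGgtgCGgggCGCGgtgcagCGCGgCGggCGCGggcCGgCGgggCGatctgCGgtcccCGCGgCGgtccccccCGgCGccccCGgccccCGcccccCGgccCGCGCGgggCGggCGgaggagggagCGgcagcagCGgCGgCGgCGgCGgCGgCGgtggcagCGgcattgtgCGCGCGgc
Zfp821: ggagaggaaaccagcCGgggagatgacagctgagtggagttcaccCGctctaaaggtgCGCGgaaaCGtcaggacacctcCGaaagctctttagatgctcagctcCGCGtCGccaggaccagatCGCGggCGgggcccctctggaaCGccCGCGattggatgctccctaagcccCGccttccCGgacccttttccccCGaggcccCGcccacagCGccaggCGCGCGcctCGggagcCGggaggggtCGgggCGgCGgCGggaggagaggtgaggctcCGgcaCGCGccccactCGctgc
Zfp788: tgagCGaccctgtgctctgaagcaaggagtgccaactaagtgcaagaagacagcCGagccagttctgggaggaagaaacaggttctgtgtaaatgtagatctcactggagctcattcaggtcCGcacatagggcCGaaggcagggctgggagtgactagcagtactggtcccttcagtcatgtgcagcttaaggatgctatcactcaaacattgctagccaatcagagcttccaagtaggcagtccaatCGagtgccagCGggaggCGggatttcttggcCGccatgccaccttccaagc
Zfp53: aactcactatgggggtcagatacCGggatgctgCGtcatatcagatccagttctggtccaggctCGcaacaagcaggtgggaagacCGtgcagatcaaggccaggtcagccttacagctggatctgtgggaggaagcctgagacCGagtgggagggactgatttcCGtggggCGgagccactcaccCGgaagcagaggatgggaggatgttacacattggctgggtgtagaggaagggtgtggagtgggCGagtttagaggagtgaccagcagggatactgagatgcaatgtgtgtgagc
Zfp995: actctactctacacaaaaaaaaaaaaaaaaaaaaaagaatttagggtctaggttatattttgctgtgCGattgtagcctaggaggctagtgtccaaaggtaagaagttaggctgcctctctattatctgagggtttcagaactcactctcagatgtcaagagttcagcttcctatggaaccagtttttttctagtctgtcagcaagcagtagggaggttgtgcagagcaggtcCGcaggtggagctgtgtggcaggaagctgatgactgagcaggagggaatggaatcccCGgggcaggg

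The first comparison asked how Zfp mRNAs differed between sgSetd2 and sgNeo tumours. Few passed. In Variant 1 no Zfp gene rose and 1 fell, Zfp618, where 0.7% of the 20009 genes tested rose and 0.72% fell (edgeR quasi-likelihood test, Benjamini-Hochberg adjusted p under 0.05). In Variant 3, 2 rose, Zfp995 and Zfp711, and none fell, where 0.88% of all genes rose and 0.615% fell. Averaged over both variants, 4 Zfp genes rose and 8 fell, 5.29% of the 227, where 3.72% of all genes rose and 3.63% fell. Among genes of at least 5 CPM, as all Zfp genes here are, 5.6% rose and 5.65% fell, so the share of Zfp genes was below this background, and no test of that share was made. The median log2 fold change of the Zfp genes was -0.04 in Variant 1, 0.02 in Variant 3 and -0.02 in the average, against -0.01, 0.02 and 0.01 over all genes tested. At an unadjusted p under 0.05 there were 33 Zfp genes in Variant 1 (14.5%), 31 in Variant 3 (13.7%) and 42 in the average (18.5%). The shares were 15.9%, 15.1% and 22.9% of all genes tested, and 21.9%, 19.4% and 30.2% of genes of at least 5 CPM. In these sorted but bulk samples, fewer cells of a type and less RNA per cell cannot be told apart.

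The differences were small. The median absolute log2 fold change of the Zfp genes in the average was 0.17, against 0.20 over genes of at least 5 CPM, and 4 of 227 moved by 1 or more. In Variant 1 the 3 sgSetd2 codes lay wholly above or below the 3 sgNeo codes for 48 Zfp genes (21.1%). In Variant 3 this held for 37 (16.3%). The shares were 24% and 19% of all genes tested, and 28.9% and 22.6% of genes of at least 5 CPM. The 2 variants share no tumours. Across the 227 genes their log2 fold changes had the same sign in 140 (61.7%), with Pearson r = 0.60 and Spearman rho = 0.39 across genes, which are not independent replicates. Over the 10239 genes of at least 5 CPM the sign was the same in 69.5%, with Pearson r = 0.59 and Spearman rho = 0.54. The 12 Zfp genes with an unadjusted p under 0.05 in both variants were Zfp711, Zfp995, Zfp53, Zfp608, Zfp574, Zfp618, Zfp788, Zfp821, Zfp637, Zfp334, Zfp57 and Zfp772. In 11 of these the sign was the same, and the exception was Zfp772 (0.48 in Variant 1 and -0.65 in Variant 3). How many of all genes met this p in both variants, or kept their sign, was not counted. These counts are therefore a description.

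**Figure D2:**
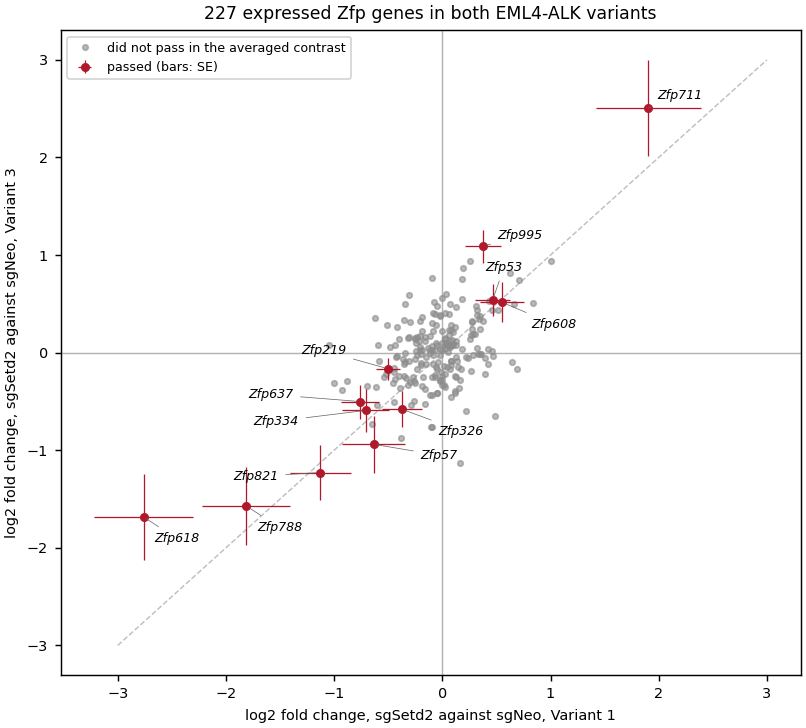
Log2 fold change of sgSetd2 against sgNeo in Variant 1 (horizontal axis) and Variant 3 (vertical axis) for the 227 Zfp genes, with the 12 that passed in the averaged contrast in red with their SE, and the dashed line marking equal change. The bulk of the genes lies close to 0 on both axes, and the 12 lie in the lower left or upper right quadrant.

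Zfp711 rose the most. It is an X-linked gene whose product belongs to the Zfx family and binds promoters together with the histone demethylase PHF8. Codes are listed from here on in TMM-normalised CPM and in a fixed order. For Variant 1 it is CE467, CE468, CE472 (sgNeo) and CE475, CE479, CE483 (sgSetd2). For Variant 3 it is CE428, CE429, CE433 (sgNeo) and CE450, CE454, CE456 (sgSetd2). Groups called apart or overlapping are judged by these codes unless tumours are named, and single tumours can overlap where codes do not. Zfp711 (ENSMUSG00000025529.14; GRCm38 chromosome X, 112600526 to 112635070) stood at 4.76, 2.93 and 7.30 in Variant 1 sgNeo and at 20.5, 11.95 and 23.7 in Variant 1 sgSetd2. In Variant 3 it stood at 1.28, 3.70 and 1.205 in sgNeo and at 10.02, 15.6 and 9.62 in sgSetd2. All 6 sgSetd2 codes lay above all 6 sgNeo codes, although single tumours of Variant 1 overlapped (0 to 12.7 CPM in Variant 1 sgNeo against 4.44 to 28.8 in sgSetd2). In Variant 3 the tumours, at 0.0691 to 4.95 and 5.69 to 21.8 CPM, did not overlap. The log2 fold change was 2.21 in the average (SE 0.35, adjusted p = 0.00412), 2.51 in Variant 3 (SE 0.50, adjusted p = 0.0344) and 1.90 in Variant 1 (SE 0.48, adjusted p = 0.0831). By Ddx3y, none of the Variant 1 sgNeo codes was male and 1 of the sgSetd2 codes was, against 2 and 1 in Variant 3, and with sex as a covariate the averaged value was 2.23 (adjusted p = 0.0079), while the Variant 3 value of 2.64 no longer passed (adjusted p = 0.0575). The Variant 3 call was also lost with the macrophage covariate (adjusted p = 0.0579) and in a fit to the compared groups alone (adjusted p = 0.0763). The size of the averaged rise depended on the method: 4.61-fold here, 8.86-fold with limma voom, 12.1-fold with limma on code means and 2.52-fold with the cell cycle covariate. Its mean in Variant 3 sgNeo, 2.06 CPM, is under the minimum, so it is a member through the groups in which it was higher.

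Zfp995 and Zfp53 are KRAB genes of the same cluster on chromosome 17, with 9 and 15 fingers. Zfp995 (ENSMUSG00000078546.8; 21879570 to 21909926) stood at 13.1, 11.6 and 12.3 CPM in Variant 1 sgNeo and at 14.7, 15.6 and 17.7 in Variant 1 sgSetd2, and at 9.52, 8.03 and 11.7 in Variant 3 sgNeo and 21.8, 17.9 and 22.5 in Variant 3 sgSetd2. Groups did not overlap in either variant, and the rise was 1.09 in Variant 3 (SE 0.17, adjusted p = 0.0111) and 0.73 in the average (SE 0.12, adjusted p = 0.00527). The Variant 1 value was 0.38 (SE 0.17, adjusted p = 0.305), and the interaction did not pass (0.71, SE 0.24, adjusted p = 0.709). Zfp53 (ENSMUSG00000057409.6; 21488998 to 21510473) stood at 19.6, 28.9 and 20.3 CPM in Variant 1 sgNeo and at 32.8, 29.5 and 32.7 in sgSetd2, and at 26.6, 27.4 and 28.7 in Variant 3 sgNeo and 39.6, 34.5 and 46.4 in sgSetd2. By code its groups were narrowly apart in Variant 1 and clearly apart in Variant 3. Single tumours overlapped in both, at 15.6 to 47.3 CPM in sgNeo against 26.8 to 42.4 in sgSetd2 in Variant 1. In Variant 3 they ran from 17.1 to 32.0 in sgNeo and from 22.8 to 48.3 in sgSetd2. The rise of Zfp53 passed in the average only (0.50, SE 0.12, adjusted p = 0.0252), with 0.47 and 0.54 in the single variants.

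Zfp608, a paralog of Zfp609 with no C2H2 array, was the other gene that rose in the average. It stood at 27.7, 27.7 and 29.3 CPM in Variant 1 sgNeo and at 37.2, 34.4 and 52.4 in sgSetd2. In Variant 3 the sgNeo codes held 22.1, 38.0 and 26.3 and the sgSetd2 codes 41.4, 44.2 and 38.0, so the nearest codes of the groups both stood at 38.0. The rise of Zfp608 came to 0.53 (SE 0.14, adjusted p = 0.0462).

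Zfp618 fell the most and was the 1 Zfp gene that passed in Variant 1. Its product binds the hydroxymethylcytosine reader UHRF2. Zfp618 (ENSMUSG00000028358.15; GRCm38 chromosome 4, 62965573 to 63139708) stood at 17.5, 25.8 and 38.0 CPM in Variant 1 sgNeo and at 2.92, 7.26 and 1.80 in sgSetd2. In Variant 3 it stood at 18.4, 22.5 and 26.3 in sgNeo and at 6.99, 5.99 and 7.93 in sgSetd2. Every sgSetd2 code lay below every sgNeo code. By tumour, the Variant 1 sgSetd2 values ran from 0.231 to 13.5 CPM and the sgNeo values from 9.68 to 55.9, and the Variant 3 ranges of 3.51 to 10.6 and 11.5 to 41.1 did not meet. The log2 fold change was -2.76 in Variant 1 (SE 0.46, adjusted p = 0.0195), -1.68 in Variant 3 (SE 0.44, adjusted p = 0.0881) and -2.22 in the average (SE 0.32, adjusted p = 0.00241). The difference between variants did not pass (1.07, SE 0.61, adjusted p = 0.843).

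Zfp788, a KRAB gene with 23 fingers (ENSMUSG00000074165.10; chromosome 7, 41633203 to 41651530), held 8.27, 12.7 and 8.80 CPM in Variant 1 sgNeo and 3.25, 3.41 and 1.82 in sgSetd2. In Variant 3 it held 11.6, 8.53 and 12.9 in sgNeo and 1.69, 4.56 and 4.87 in sgSetd2. Its log2 fold change in the average was -1.69 (SE 0.29, adjusted p = 0.00595), with -1.81 and -1.57 in the single variants, neither of which passed (adjusted p = 0.0534 and 0.0847). With limma on code means the averaged fall was -2.37. Zfp788 and Zfp618 were under 5 CPM in at least 1 sgSetd2 group and so were members through their sgNeo level. Zfp821 (ENSMUSG00000031728.10; chromosome 8, 109705546 to 109724932), a gene with 2 fingers and no KRAB pattern, held 16.4, 19.3 and 19.2 CPM in Variant 1 sgNeo and 7.26, 12.4 and 5.42 in sgSetd2, and 24.0, 20.4 and 27.0 in Variant 3 sgNeo and 9.80, 7.89 and 12.8 in sgSetd2. The fall of Zfp821 was -1.18 in the average (SE 0.20, adjusted p = 0.00606) and of like size in both variants, -1.13 and -1.23. For both genes the codes of the groups did not overlap in either variant.

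The remaining 5 falls were smaller than 1 on the log2 scale. Zfp637, a gene with 6 fingers on chromosome 6, stood at 48.2, 67.5 and 41.1 CPM in Variant 1 sgNeo against 29.9, 31.6 and 31.2 in sgSetd2, and at 45.8, 42.8 and 56.4 against 31.6, 34.5 and 36.3 in Variant 3 (-0.63, SE 0.12, adjusted p = 0.0122). The sgSetd2 codes were lower and much tighter than the sgNeo codes. Zfp219, which encodes a DNA-binding partner of SOX9 in cartilage, stood at 48.2, 46.5 and 41.5 against 31.6, 34.2 and 30.1 in Variant 1 and at 49.6, 44.7 and 53.6 against 43.4, 42.2 and 46.4 in Variant 3 (-0.33, SE 0.08, adjusted p = 0.0286). Its groups were apart in Variant 1 and overlapped in Variant 3. Exons of Zfp219 share 266 annotated bases with Tmem253, 175 with Arhgef40 and 134 with Gm49086, all on the opposite strand, and the library kit does not mark strand.

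Zfp334, a KRAB gene with 14 fingers, stood at 8.10, 10.6 and 10.9 CPM against 5.76, 6.47 and 5.86 in Variant 1 and at 11.02, 9.76 and 10.2 against 5.41, 6.33 and 8.82 in Variant 3 (-0.65, SE 0.15, adjusted p = 0.0288). Its groups were apart in both variants. Zfp57, which with TRIM28 keeps methylation at imprinted regions, stood at 16.8, 21.4 and 12.7 against 9.42, 14.4 and 8.96 in Variant 1 and at 23.7, 20.1 and 33.1 against 9.64, 13.0 and 17.4 in Variant 3 (-0.79, SE 0.20, adjusted p = 0.0408). It overlapped in Variant 1 only. Zfp326, whose product joins splicing to transcript elongation, stood at 21.7, 19.5 and 19.5 against 18.5, 15.6 and 12.9 in Variant 1 and at 28.5, 23.5 and 25.3 against 13.1, 18.8 and 19.8 in Variant 3 (-0.48, SE 0.13, adjusted p = 0.0499). This was the call closest to the threshold.

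**Figure D3:**
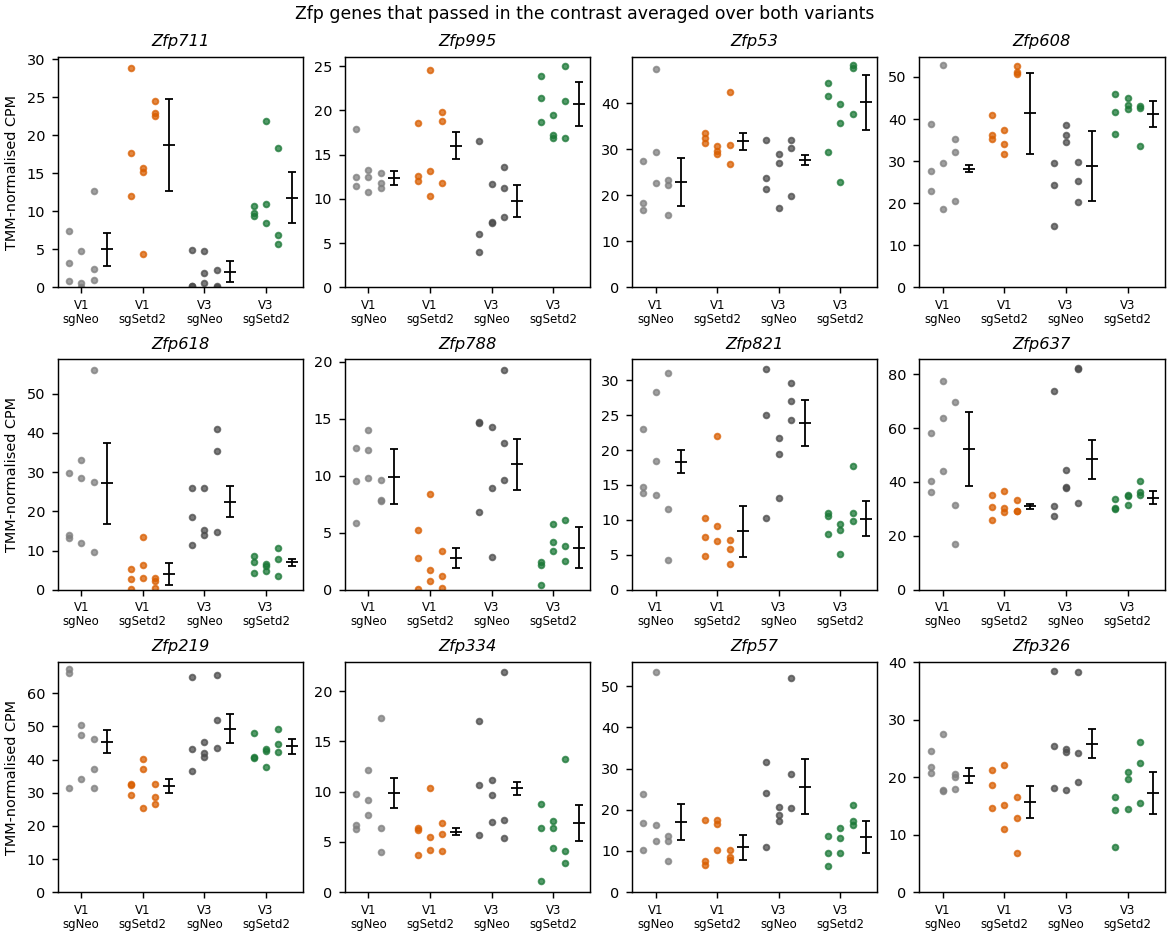
TMM-normalised CPM (vertical axes, from 0) of the 12 Zfp genes that passed in the averaged contrast, by group; each point is a tumour, the 3 tumours of a code share a horizontal place, and the black bar is the mean of the 3 codes ± SD. Among the 12, Zfp711 and Zfp618 have the largest log2 fold changes of either sign in both variants. Their tumours overlap between guides in Variant 1 but not in Variant 3. Tumours of the 2 guides also overlap for smaller changes such as Zfp57 and Zfp326.

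Calls were read against what else differed between the groups. With the cell cycle list as a covariate, no Zfp gene passed in the average and 0.21% of all genes did; Zfp995 was then at 0.93 (adjusted p = 0.103), Zfp618 at -1.90 (adjusted p = 0.199), Zfp711 at 1.34 (adjusted p = 0.261), Zfp821 at -0.79 (adjusted p = 0.46) and Zfp608 at 0.15 (adjusted p = 0.922). Without the 3 Variant 1 sgNeo tumours highest in that list, 4 Zfp genes passed in the average, where 3.14% of all genes did. They were Zfp995 (0.66, adjusted p = 0.0212), Zfp618 (-2.10, adjusted p = 0.00337), Zfp788 (-1.73, adjusted p = 0.00783) and Zfp821 (-1.11, adjusted p = 0.0271). Zfp711 was then at 2.29 (adjusted p = 0.0755). With the macrophage list as a covariate 10 passed, where 6.12% of all genes did, and Zfp326, Zfp57 and Zfp608 of the 12 did not. The part of the club cell, ciliated and neutrophil markers in these values was not tested. Ciliated markers summed to 15.2 to 125 CPM in Variant 1 sgSetd2 against 5.77 to 10.02 in sgNeo, and to 2.92 to 9.64 against 2.66 to 5.34 in Variant 3, with 2 of 4 higher in the average and Dnah5 at 0 in both sgNeo groups. Neutrophil markers summed to at most 15.9 CPM, with 1 of the 2 tested higher and Csf3r or S100a9 at 0 in every group.

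Leaving out 1 code at a time gave between 6 and 15 Zfp genes in the average, while the share of all genes called ran from 3.38% to 7.17%. Zfp711, Zfp995, Zfp618, Zfp788, Zfp821 and Zfp637 passed each of these 12 times, with a highest adjusted p of 0.0148, 0.0194, 0.011, 0.0186, 0.0248 and 0.04. Of these only Zfp637 was lost by a change to limma, both with limma voom and with limma on code means. Limma voom also lost Zfp334, and limma on code means also lost Zfp219 and Zfp57. With codes left out, the count was 6 without any of CE428, CE433, CE450, CE475 or CE483, 7 without CE454 or CE467 and 8 without CE468. Zfp53 was lost without CE428, CE433, CE450, CE467, CE472, CE475 or CE483 (adjusted p up to 0.0672), and Zfp219, Zfp334 and Zfp57 were each lost in 8 of the 12 refits (up to 0.0832, 0.0747 and 0.106). Zfp608 passed only without CE429 or CE479, and Zfp326 only without CE456 (up to 0.115 and 0.122). Among single tumours, leaving out tumour 1 of CE468 gave 6 (4.95% of all genes). Tumour 2 of CE428 or of CE472 gave 7 (5.49% and 4.3%). The Variant 1 call of Zfp618 was lost without CE468, CE472, CE475 or CE483 (adjusted p up to 0.101), and the Variant 3 call of Zfp995 without CE428 or CE450 (up to 0.0616). In a fit to the compared groups alone both were lost as well (adjusted p = 0.0702 for each), and Zfp618 was then the 1 Zfp gene called in Variant 3 (-1.68, adjusted p = 0.0227). The Variant 3 call of Zfp711 was lost without CE428, CE433, CE450, CE454, CE456 or CE475 (up to 0.134).

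Genes were also grouped by role. In the averaged contrast 7.35% of all genes tested and 11.3% of genes of at least 5 CPM passed. The shares of the role lists were not tested against these. Of 10 expressed Zfp genes with roles in RNA and translation, Zfp326 fell (10%) and the other 9 did not pass (median -0.10). These include Zfp36 (0.24, adjusted p = 0.555), Zfp598, which encodes the ubiquitin ligase that marks collided ribosomes (-0.24, adjusted p = 0.239), and Zfp622, a ribosome maturation factor gene (0.16, adjusted p = 0.29). Of 11 genes of chromatin complexes and cofactors none passed (median -0.10, smallest adjusted p 0.188, for Zfp410, which encodes an activator of Chd4, at -0.24), and 1 had an unadjusted p under 0.05. Zfp687, Zfp592 and Zfp532, whose products share a complex with ZMYND8, stood at -0.26, 0.09 and -0.21. Of 9 sequence-specific activators and developmental factors, Zfp219 fell (11.1%) and the others did not pass (median -0.05). Among those were Zfp281 (0.03), Zfp143 (0.19) and Zfp703 (0.35).

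Of 7 KRAB repressors of imprints and retroelements, Zfp57 fell (14.3%) and 6 did not pass (median -0.22). Zfp445, which encodes the second known KRAB protein of imprint maintenance, stood at 86.5, 76.6 and 89.7 CPM in Variant 1 sgNeo and 123, 106 and 122 in sgSetd2, with the groups apart, and at 0.47 on the log2 scale (SE 0.16, adjusted p = 0.162). In Variant 3 its groups overlapped (-0.04). Zfp809 stood at 0.13 in the average, Zfp568, whose product represses a placental promoter of Igf2, at -0.22, Zfp961 at -0.39 (adjusted p = 0.169), Zfp932 at -0.23 and Zfp429 at -0.02. Of the 106 genes with the KRAB pattern 2 rose and 2 fell (1.89% each, median -0.03). Of the other 121, the pseudogene Zfp125 included, 2 rose (1.65%) and 6 fell (4.96%, median -0.02). Of all genes 3.72% rose and 3.63% fell, and of genes of at least 5 CPM 5.6% rose and 5.65% fell. The difference between genes with and without the pattern was not tested.

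The partners through which KRAB proteins act were read from a list of 23 genes, of which 22 were tested. In the average 1 rose (4.55% of the list) and 3 fell (13.6%), where 3.72% and 3.63% of all genes did. Among genes of at least 5 CPM, 5.6% rose and 5.65% fell, and the share of the list was not tested. The list median was -0.08, against 0.01 over all genes and -0.0004 over genes of at least 5 CPM. Resf1, whose product represses endogenous retroviruses with SETDB1, rose by 0.86 (SE 0.21, adjusted p = 0.035). By group mean it went from 132 to 229 CPM in Variant 1 and from 149 to 282 in Variant 3. Its codes were apart in Variant 1. They overlapped in Variant 3, at 108, 186 and 152 CPM with sgNeo against 165, 247 and 434 with sgSetd2. Trim28, the corepressor itself, was -0.32 (SE 0.08, adjusted p = 0.0291), with 72.1 against 55.7 CPM in Variant 1 and 75.4 against 62.6 in Variant 3. Morc2a, a partner of the HUSH silencing complex, was -0.70 (SE 0.15, adjusted p = 0.0159). Its codes were apart in Variant 1 and overlapped in Variant 3 (44.1, 65.8 and 62.7 CPM with sgNeo against 27.5, 45.4 and 31.7 with sgSetd2). Ehmt1, a lysine 9 methyltransferase gene, was -0.41 (SE 0.08, adjusted p = 0.0102). It was the 1 gene of the list that passed in Variant 1 (-0.62, adjusted p = 0.0245). The codes of Trim28 and of Ehmt1 did not overlap between guides in either variant. Setdb1 (0.25, adjusted p = 0.219), the heterochromatin protein genes Cbx1, Cbx3 and Cbx5, and the histone deacetylase genes Hdac1 and Hdac2 did not pass. Uhrf1 was at -1.02 (SE 0.36, adjusted p = 0.116) and Dnmt1 at -0.45 (adjusted p = 0.0907), and neither passed. With the cell cycle list as a covariate 0.21% of all genes passed in the average. The part of the cell cycle in the values of this list, calls included, was not tested.

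**Figure D4:**
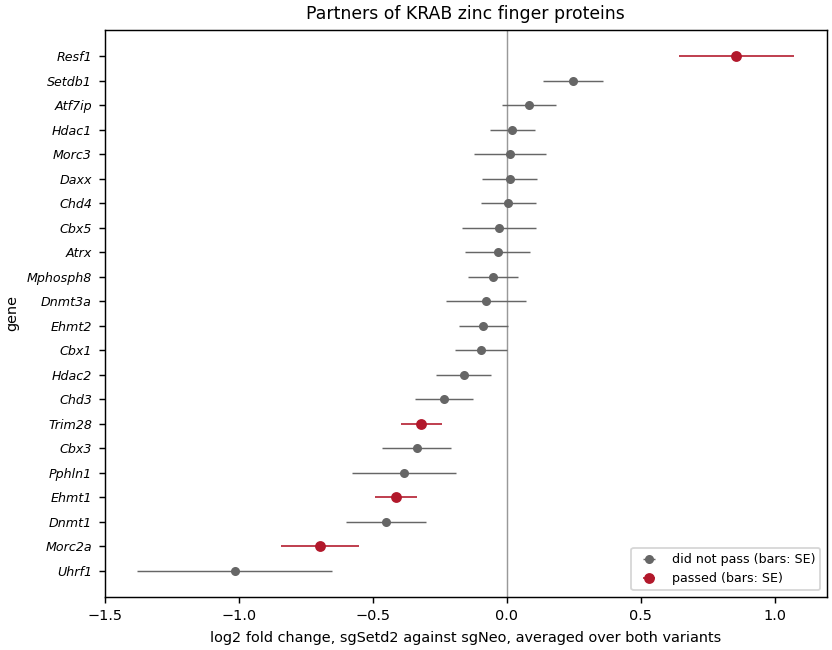
Log2 fold change of sgSetd2 against sgNeo averaged over both variants (horizontal axis, bars SE) for the 22 tested partners of KRAB proteins (vertical axis), with genes that passed in red. Resf1 stands alone on the right at 0.86, and Trim28, Ehmt1 and Morc2a are the 3 that fell.

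Zfp genes lie in clusters, and 88 of the 227 fell into 12 clusters of 4 or more with starts at most 500 kb apart. Chromosome 7 held 51 Zfp genes and chromosome 17 held 36. The largest cluster, on chromosome 17 from 21008903 to 23193252, held 20, all with the KRAB pattern. In it Zfp53 and Zfp995 rose, and 14 of 20 had a positive value in the average (median 0.17, from -0.42 to 0.73), where 104 of all 227 were positive (median -0.02). In Variant 3, 15 of 20 were positive with a median of 0.31, and in Variant 1, 11 were positive with a median of 0.04; this difference was not tested. Neighbours differed: Zfp943, 2 places from Zfp995, stood at -0.31, and Zfp229 at -0.42, beside Zfp820 at 0.06. In the chromosome 7 cluster from 29768552 to 30169750, all 9 values were negative in the average (median -0.22, from -0.65 for Zfp27 to -0.00 for Zfp84), and 0 of 9 passed.

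In the chromosome 9 cluster from 20345136 to 20605409, which holds Zfp560, Zfp26, Zfp426, Zfp266 and Zfp846, all 5 values were positive in Variant 1 (0.08 to 0.39) and all 5 negative in Variant 3 (-0.45 to -0.02), with none passing in either. In the next cluster of that chromosome, from 22055411 to 22307648, all 5 were positive in the average, led by Zfp872 at 0.97 (SE 0.42, adjusted p = 0.189). Clusters were singled out after their values were seen, and genes of a cluster are not independent, since duplicates can share reads. Of the 227 genes, 15 had more than 10% of their 100-base stretches in transcripts of another gene (Zfp935 99.3% and Zfp97 67.3%), and their counts are uncertain. The 12 genes that passed had at most 0.2%. An annotated gene shared exon bases with 66 of the 227, and among the 12 only with Zfp219 and Zfp608.

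**Figure D5:**
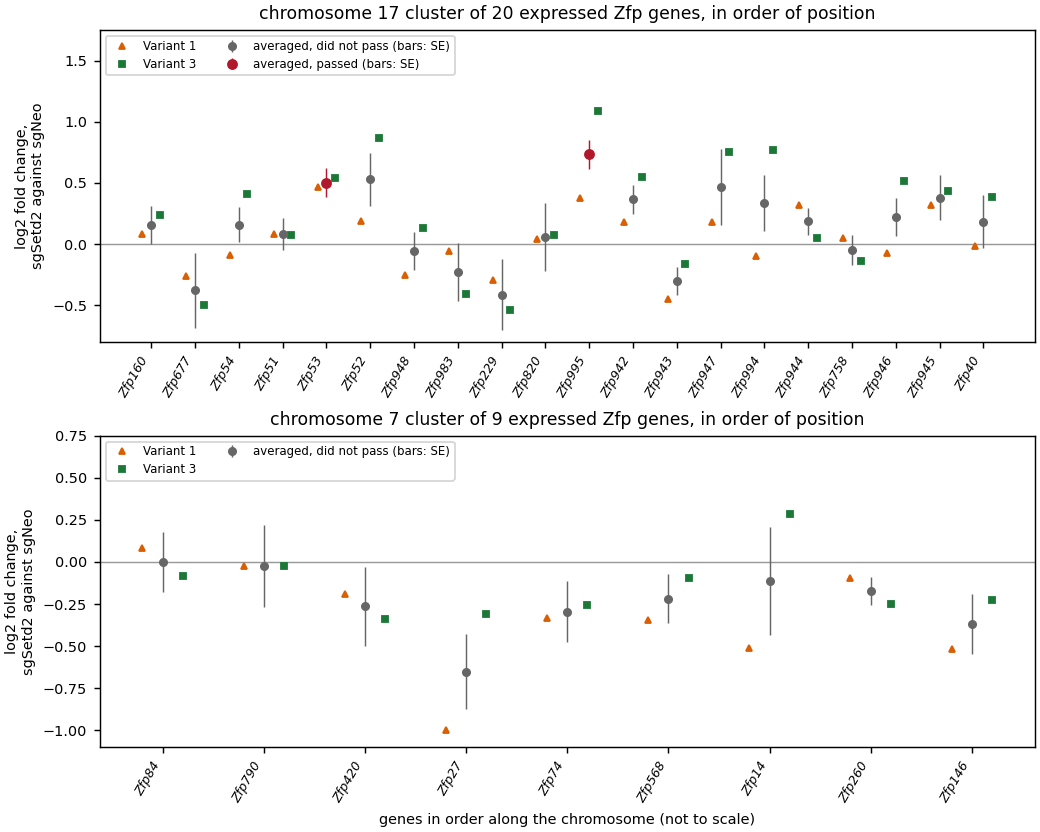
Log2 fold change of sgSetd2 against sgNeo (vertical axes) for the Zfp genes of a cluster on chromosome 17 and one on chromosome 7, in order along the chromosome; circles are the averaged contrast with SE, triangles Variant 1 and squares Variant 3. Zfp53 and Zfp995 pass on chromosome 17 among neighbours of both signs, and on chromosome 7 all 9 circles are at or below 0.

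The next comparison was between the fusion variants. Under sgNeo no Zfp gene passed between Variant 3 and Variant 1, where 0.005% of all genes did. An unadjusted p under 0.05 was reached by 24 (10.6%), against 10.4% of all genes and 11.8% of genes of at least 5 CPM. Under sgSetd2 none passed, where 0.13% of all genes did. Here 13 (5.73%) had an unadjusted p under 0.05, against 9.70% of all genes and 13.3% of genes of at least 5 CPM (edgeR in both). DESeq2 on the same sums called 2 and 3 Zfp genes, where it called 1.96% and 2.42% of all genes. The smallest p under sgNeo was that of Zfp148, which encodes a GC-box factor. It stood at 111, 114 and 108 CPM in the Variant 1 sgNeo codes and at 68.4, 75.3 and 80.8 in the Variant 3 sgNeo codes, -0.57 on the log2 scale (SE 0.11, adjusted p = 0.178), with the groups far apart. Zfp654 stood at -0.61 (adjusted p = 0.284), Zfp367 stood at -0.64 (adjusted p = 0.336), and Zfp710 (0.52), Zfp866 (0.58) and Zfp687 (0.52) stood at positive values (adjusted p = 0.332, 0.354 and 0.385). Under sgSetd2 the smallest p values were those of Zfp772 (-0.86, adjusted p = 0.169), Zfp219 (0.46, adjusted p = 0.177) and Zfp930 (-0.65, adjusted p = 0.232), with Zfp994 (0.91), Zfp27 (0.83) and Zfp952 (-0.56) next.

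The interaction asked whether the guide contrast differed between variants. No Zfp gene passed, where 0% of all genes did (edgeR). At an unadjusted p under 0.05 there were 13 (5.73%), against 6.00% of all genes and 6.22% of genes of at least 5 CPM. DESeq2 called 1, and 0.57% of all genes. Zfp772 had the smallest p (-1.13, SE 0.29, adjusted p = 0.604). In Variant 1 it stood at 9.61, 8.90 and 8.18 CPM with sgNeo and 11.9, 12.5 and 13.0 with sgSetd2. In Variant 3 it stood at 13.8, 8.41 and 9.89 with sgNeo and 7.29, 7.36 and 5.88 with sgSetd2. The sgSetd2 codes lay above sgNeo in Variant 1 and below it in Variant 3. Zfp930 followed (-0.86, adjusted p = 0.676), with 17.7, 19.1 and 20.1 against 35.8, 27.3 and 29.0 CPM in Variant 1 and 26.2, 21.4 and 18.4 against 20.4, 16.003 and 22.4 in Variant 3. Its groups were apart in Variant 1 (0.69, adjusted p = 0.0834) and overlapped in Variant 3. Zfp446 (-0.82), Zfp995 (0.71), Zfp622 (0.46) and Zfp148 (0.39) came next, with adjusted p from 0.709 to 0.77. Within Variant 3, Zfp444 (-0.76, adjusted p = 0.0832) and Zfp975 (0.94, adjusted p = 0.137) were among the 3 smallest p values of their direction without passing.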

How the data were processed

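RNA of sorted tumour cells was isolated with PicoPure, amplified with a SMART-Seq mRNA kit, which does not mark strand, and sequenced as read pairs on a NovaSeq, per the labels' protocols. The submitters' processing notes name STAR 2.5.3a, R 4.2 and DESeq2 1.38.3. Of the counting tool, its strand setting, the genome build and the annotation, each is not given in the sources used here. The authors deposited raw counts per gene for 36 tumours, with no normalisation, as whole numbers. Gene IDs were matched to symbols, positions and exon lengths of GENCODE release 21 for the mouse (GRCm38), where 49326 of 49585 matched and 259 did not.

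Counts of the 3 tumours that share a code were summed to 12 codes, since tumours of a code may share a source. Tests used edgeR 4.0.16 (R 4.3.3; filterByExpr, TMM scaling, robust quasi-likelihood fit) on all 4 groups together, with Benjamini-Hochberg adjustment over 20009 genes and a threshold of 0.05. The standard error is the absolute log2 fold change over the square root of F. The averaged contrast gives both variants equal weight. Depth was 91479340 to 212097748 counts per code. Zfp genes at 5 CPM still rest on many counts per code, and the spread between codes and the number of codes limit precision. Fingers and KRAB boxes were found by patterns in translated GENCODE transcripts, and promoter windows come from RefSeq. Python 3.11.15, pandas 2.3.3 and numpy 2.4.6 did the rest, and the scripts were tested on simulated counts.

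Genes named in the text are those past the threshold in a contrast, or the 3 of smallest p in each direction where fewer than 3 passed, the 6 highest by level, the 3 on either side of the minimum, members of the role lists and clusters, and genes with p under 0.05 in both variants. The members and lists were chosen with earlier results of these data known. Alternatives tried were DESeq2 1.42.0, edgeR on 36 tumours, limma 3.58.1 (voom with the code as a random block, or code means of log2-CPM), scaling by RLE or by the upper quartile, a filter at 5 CPM or none, a fit to the compared groups alone, covariates for cell cycle, macrophage markers and sex, and each code and each tumour left out. Leaving out tumours together (those highest in the cell cycle list, or with Col1a1 above 10 CPM), and each tumour in turn for single genes, was chosen after seeing the data.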

Additional observations from a re-analysis of the deposited data

Results flagged for a closer look

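For the 12 Zfp genes that passed in any contrast and for the summed Zfp level, the 9 tumours of each group were searched for a single tumour far from the others. This made 52 groups, of which 9 held such a tumour, each time above the others. For independent, normally distributed values chance marks about 1 in 20. The same tumours recur across genes, so the 52 groups are not independent, and 9 cannot be set against that rate.

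Tumour 4 of code CE479 stood above the other Variant 1 sgSetd2 tumours for 3 of the genes that fell. It held 22.0 CPM of Zfp821 against 3.73 to 10.2 in the others, 13.5 CPM of Zfp618 against 0.231 to 6.33, and 10.3 CPM of Zfp334 against 3.74 to 6.86. This tumour is also 1 of those with Col1a1 above 10 CPM. Tumour 4 of CE468, likewise above 10 CPM of Col1a1, stood out in the Variant 1 sgNeo group, with 47.3 CPM of Zfp53 against 15.6 to 29.4 and 53.5 CPM of Zfp57 against 7.49 to 23.9. The part of the fibroblast signal in these values was not tested.

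Other tumours stood out for 1 gene each. Zfp53 reached 42.4 CPM in tumour 4 of CE483 against 26.8 to 33.4 in the other Variant 1 sgSetd2 tumours. Zfp57 reached 51.9 CPM in tumour 2 of CE433 against 10.97 to 31.5 in the other Variant 3 sgNeo tumours. Zfp821 reached 17.8 CPM in tumour 10 of CE456 against 5.15 to 10.99 in the other Variant 3 sgSetd2 tumours. Zfp995 reached 17.9 CPM in tumour 3 of CE467 against 10.8 to 13.3 in the other Variant 1 sgNeo tumours.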

How the results depend on the processing

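In the averaged contrast 12 Zfp genes passed. DESeq2 gave 23 (14.5% of all genes) and edgeR on 36 tumours 26 (16.6%). The cell cycle covariate gave 0 (0.21%), and leaving out the 3 Variant 1 sgNeo tumours highest in that list 4 (3.14%). The other alternatives gave 9 to 18, left-out codes 6 to 15 and left-out tumours 6 to 14. In Variant 1, 1 passed; no filter gave 2 (0.855% of all genes), the filter at 5 CPM 5 (4.75%), DESeq2 12 (7.5%), edgeR on tumours 5 (4.15%), voom 2 (2.57%), limma on means 3 (1.22%), only the groups compared 0, the cell cycle covariate 0, leaving out the 3 tumours 0 and leaving out those with Col1a1 above 10 CPM 3 (left-out codes 0 to 2, tumours 0 to 5). In Variant 3, 2 passed. DESeq2 gave 13 (6.65% of all genes), edgeR on tumours 11 (8.34%) and voom 11 (6.48%). Only the groups compared gave 1 (0.939%), which was Zfp618 and neither of the 2. The macrophage covariate gave 1 (0.825%), the sex covariate 1 (0.94%) and leaving out the 3 tumours 1 (1.15%). Without the Col1a1 tumours 7 passed (1.77%). Left-out codes gave 0 to 4 and left-out tumours 1 to 4. Between variants under sgNeo, where 0 passed, DESeq2 gave 2 (1.96% of all genes) and edgeR on tumours 2 (0.858%). Under sgSetd2, DESeq2 gave 3 (2.42%) and leaving out the Col1a1 tumours 1 (0.524%). For the interaction, DESeq2 gave 1 (0.57%). The sign turned for 2 genes: Zfp445 in Variant 1 went to -0.035 (adjusted p = 1) with the cell cycle covariate, and Zfp367 under sgNeo to 0.023 (adjusted p = 0.982) without the 3 tumours. The cause was not tested for any of these. In Variant 1 the cell cycle values of sgNeo and sgSetd2 codes do not overlap, so that covariate and the guide cannot be told apart there. No paired analysis was possible because the codes carry no replicate number that groups share. Precision is set by the spread between 3 codes per group, and genes that share reads or exons remain uncertain.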

Other observations

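Zfp239, a Zfp gene below the minimum level (mean 2.56 CPM), follows Zfp637 on chromosome 6 (117862100 to 117873291, GRCm38) and was picked out after its values were seen. It stood at 9.21, 9.92 and 1.70 CPM in the sgNeo codes of Variant 1 and at 0.561, 0.413 and 0.130 in the sgSetd2 codes. In Variant 3 it stood at 3.22, 1.89 and 1.77 with sgNeo and at 0.445, 0.408 and 0.837 with sgSetd2. The codes of both guides did not overlap in either variant. Its log2 fold change was -4.23 in Variant 1 (SE 0.76, edgeR adjusted p = 0.0245), -2.02 in Variant 3 (SE 0.69, adjusted p = 0.185) and -3.13 in the average (SE 0.51, adjusted p = 0.00498), a larger fall than that of any of the 12 called genes at 5 CPM or more. The lowest tumour was at 0 CPM in every group but Variant 3 sgNeo.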
